A study of Mus musculus with 6 samples.

Results

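The genes that encode the proteins of the cytosolic ribosome were taken from the estimated count table of mouse pancreatic islets by symbol. A row was a member if its symbol had the form Rpl or Rps with a number and an optional short suffix, or was Rplp0, Rplp1, Rplp2 or Rpsa, and if its count was above 10 in at least 3 libraries. Of the 34945 rows of the table, 85 had such a symbol and 80 were members, 47 of the large subunit and 33 of the small subunit. The 5 rows that did not reach the count minimum were Rpl3l, Rpl10l, Rpl39l, Rpl6l and Rpl32l, and none had more than 3 counts in any library. One member, Rps4l, is annotated as a transcribed processed pseudogene, and the other members are protein coding.

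All the mice carried RIP-Cre, in which an insulin promoter of the rat drives Cre recombinase. They also carried Rosa26-rtTA, whose product turns on tetO genes when doxycycline is present. The Jag1 group (genotype RIP-Cre+, Rosa26-rtTA+, tetO_Jag1+) also had a doxycycline-responsive allele of the Notch ligand Jag1. The Control group (RIP-Cre+, Rosa26-rtTA+, tetO_Jag1-) had no such allele, and both groups drank doxycycline for 8 weeks. There were 3 libraries in each group, and no ages are used here. Whether the numbered libraries of a group are different mice is not stated in the labels, and the p-values therefore reflect library-to-library spread, which may be technical. The transgene is driven in insulin-expressing cells, whereas RNA came from whole islets. In such bulk samples, fewer cells of a type and less RNA per cell cannot be told apart.

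The ribosome has a small subunit that reads the mRNA and a large subunit that joins amino acids, and each holds many proteins made in nearly equal numbers. Messenger RNAs of these proteins are abundant in most cells. In vertebrates they begin with a run of pyrimidines, the 5′ terminal oligopyrimidine (TOP) tract, through which mTORC1 controls their translation. Most of the genes have many processed pseudogenes, copies of the mRNA set back into the genome, some of which are nearly identical to the gene. Beta cells use this machinery for large-scale synthesis of proinsulin.

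A read that matches a member and its copies equally well cannot be assigned to one of them by sequence, so a few of these sequences are shown first. A near-copy row was defined, after the data had been seen, as a row of another gene that holds at least 50% of the 31-base words of the member's coding sequence in GENCODE vM21 (build GRCm38). By this measure 69 of the 80 members had near-copy rows, 279 rows in all, 267 annotated as pseudogenes and 12 as protein coding. In 34 members every such word of the coding sequence also occurred in another gene, and in only 5 were over 50% of the words unique. The first 60 coding bases of Rps12 (chromosome 10, 23785183 to 23787275, minus strand) are shown because the same bases begin 2 other rows, Rps12-ps3 (chromosome 19, 59322290 to 59322783, plus strand) and Rps12l1 (chromosome 7, 56014016 to 56014414, plus strand). All 396 coding bases of Rps12 occur without a difference in both.
Rps12, Rps12-ps3 and Rps12l1: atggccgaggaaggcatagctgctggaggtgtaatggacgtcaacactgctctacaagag

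Coding positions 403 to 462 of Rpl14 (chromosome 9, 120571444 to 120574654, plus strand) and the matching bases of Rpl14-ps1 (chromosome 7, 45324965 to 45325617, plus strand) are shown as a pair that can be told apart. Capitals mark the 5 positions that differ when bases are paired without gaps, C420T, A423G, G456T, T459A and A462T. The base of Rpl14 is first, and positions are counted from the A of its start codon. Past this stretch the sequences are shifted against each other by inserted or deleted bases. G456T, T459A and A462T lie at that edge and can also be read as bases missing from the copy, not as substitutions.
Rpl14: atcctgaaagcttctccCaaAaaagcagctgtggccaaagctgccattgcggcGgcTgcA
Rpl14-ps1: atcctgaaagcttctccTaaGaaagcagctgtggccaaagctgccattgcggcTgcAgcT

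The promoter table of RefSeq (build GRCm38.p6) held 70 start sites for 59 of the 80 members. A run of at least 8 C or T bases on the coding strand lay within 15 bases of the start in 27 of the 70, or 38.6%, against 12.0% of 32851 start sites of all genes. With 10 bases on each side the shares were 28.6% and 7.43%, and with a run of at least 7 they were 47.1% and 18.6% for 15 bases and 37.1% and 12.2% for 10 bases. These windows were compared after the sequences had been seen, and a match describes letters only. The longest runs belonged to Rpl7a (chromosome 2, 26910792 to 26910821, plus strand), Rpl27a (chromosome 7, 109519180 to 109519209, plus strand), Rpl34 (chromosome 3, 130730323 to 130730352, minus strand) and Rpl35 (chromosome 2, 39005117 to 39005146, minus strand). They are printed with the run in capitals, from 15 bases before the start to 15 bases from it.
Rpl7a: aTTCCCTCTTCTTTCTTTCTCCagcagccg
Rpl27a: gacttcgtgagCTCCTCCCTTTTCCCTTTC
Rpl34: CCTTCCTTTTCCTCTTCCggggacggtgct
Rpl35: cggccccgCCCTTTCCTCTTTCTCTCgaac

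Total estimated counts ranged from 14283469 to 34348729 per library. Jag1 itself was at 4.01 to 4.28 CPM (counts scaled to a common library size by TMM) in Control and 525 to 907 CPM in Jag1 libraries. Beta cell markers took 12.7% to 20.8% of counts. Acinar enzymes, from the exocrine tissue around islets, took 0.360% to 9.004% of counts, and the 2 highest shares were in Control 1 (8.95%) and Jag1 3 (9.004%). Over 14073 genes, the edgeR quasi-likelihood test with p adjusted by Benjamini-Hochberg called 3 genes, Jag1, Hprt and Ces1d.

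Summed over the 80 members, the share of counts was 1.49%, 1.61% and 1.54% in the Control libraries, numbered 1 to 3, and 1.93%, 1.65% and 1.57% in the Jag1 libraries in the same order. The exact Clopper-Pearson 95% intervals were narrow, for example 1.92% to 1.93% in Jag1 1, and cover counting error only. The highest share was that of Jag1 1, and Jag1 3 lay below Control 2, so the groups overlapped. The mean was 1.54% ± 0.0590 in Control and 1.71% ± 0.187 in Jag1 (SD, n = 3 each). Large-subunit rows took 0.926% ± 0.0391 of counts in Control and 1.02% ± 0.101 in Jag1. Small-subunit rows took 0.619% ± 0.0200 and 0.690% ± 0.0874.

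Levels of the members were compared as CPM per kb of one annotated transcript. The median member stood at 283 CPM per kb, with quartiles at 172 and 362. Rpl41, which encodes the smallest protein of the ribosome, was highest at 1229 ± 121 CPM per kb (SD over 6 libraries). Rps24, a small-subunit protein, followed at 972 ± 92.4 CPM per kb. The lowest library of Rpl41 (1086) was above the highest of Rps24 (1076). The third was Rps3a1, at 543 ± 60.2 CPM per kb, whose highest library (657) was below the lowest of Rps24 (863). Rps3a1 did not differ from the next gene, Rps27 (531 ± 107), beyond their spread.

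At the other end were Rpl27 at 15.99 ± 3.17, Rpl5 at 8.86 ± 1.41 and Rpl12 at 5.96 ± 0.331 CPM per kb. The level of the highest row was 206 times that of the lowest. These low rows have near-copy rows that hold most of the reads. With near-copy rows summed into the member, the levels were 171 CPM per kb for Rpl27, 245 for Rpl5 and 165 for Rpl12, and the span from the highest to the lowest member became 34 times. Rpl10, a late-joining large-subunit protein, moved from rank 64 to rank 3 and Rps12 from rank 77 to rank 7. Levels per kb also depend on the transcript used. The annotated transcript of Rps20 is 3706 bases and that of Rps3 is 1908 bases, long for these genes, and this lowers their values.

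**Figure D1:**
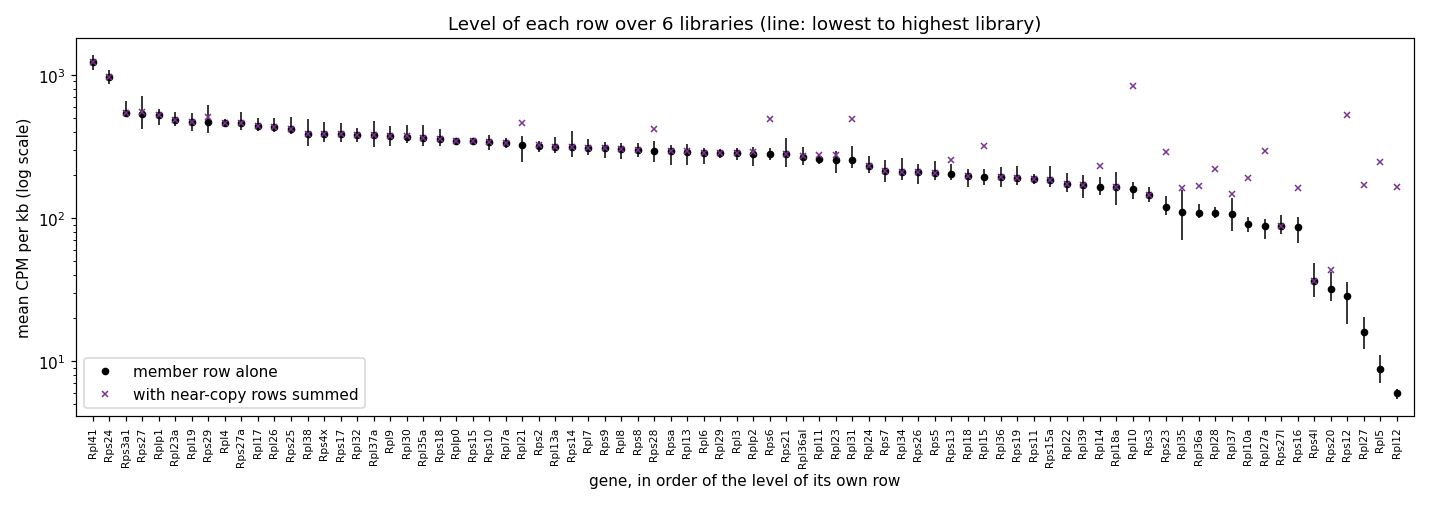
Mean level of each of the 80 ribosomal protein rows over 6 libraries, in CPM per kb on a log scale, with a line from the lowest to the highest library. Crosses give the level with near-copy rows summed, and they stand well above the points of Rpl10, Rps12, Rpl27, Rpl5 and Rpl12.

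No member passed the test between Jag1 and Control (0 of 80, against 0.0213% of all genes tested), and the smallest adjusted p of a member was 0.646. Without adjustment, 7 of 80 members had p under 0.05, or 8.75%, against 4.97% of all genes; 6 were higher in Jag1 (2.22% of all genes) and 1 was lower (2.75%). That count was 4 without Jag1 1 (648 of all 14390 genes in that fit), 13 without Jag1 2 (796 of 14362) and 16 without Control 3 (818 of 14381). It was 14 with the acinar marker level as a covariate (829 of 14073) and 17 by DESeq2 (679 of 14073). DESeq2 called 1 member, Rps20, with an adjusted p of 0.0482 (36 genes, 0.256%, were called in all), and limma-voom called none (0.0284% of all genes). The members' log2 fold changes were small. They ran from -0.61 to 0.45, with 66 of 80 within 0.25 of 0 and a median SE of 0.12.

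By edgeR's fit, 62 of 80 members had a higher fitted level in Jag1, against 49.0% of all genes. The median log2 fold change was 0.12 over members and -0.00 over all genes. Both subunits leaned the same way, with 36 of 47 large-subunit rows (median 0.11) and 26 of 33 small-subunit rows (median 0.13) above 0. All 3 Jag1 values lay above all 3 Control values in 18 members, or 22.5%, against 5.30% of all genes. All 3 lay below in 1 member, against 5.21% of all genes. Without Control 3 these counts were 27 above and 11 below, without Jag1 2 they were 33 and 2, and without Control 1 they were 31 and 1. Fewer libraries make separation easier, and the shares over all genes were not taken for these fits. The counts with a library left out therefore cannot be set against 5.30% and 5.21%. Members are counted in the same libraries and are not independent, so a level that moves in 1 library moves many of them at once.

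**Figure D2:**
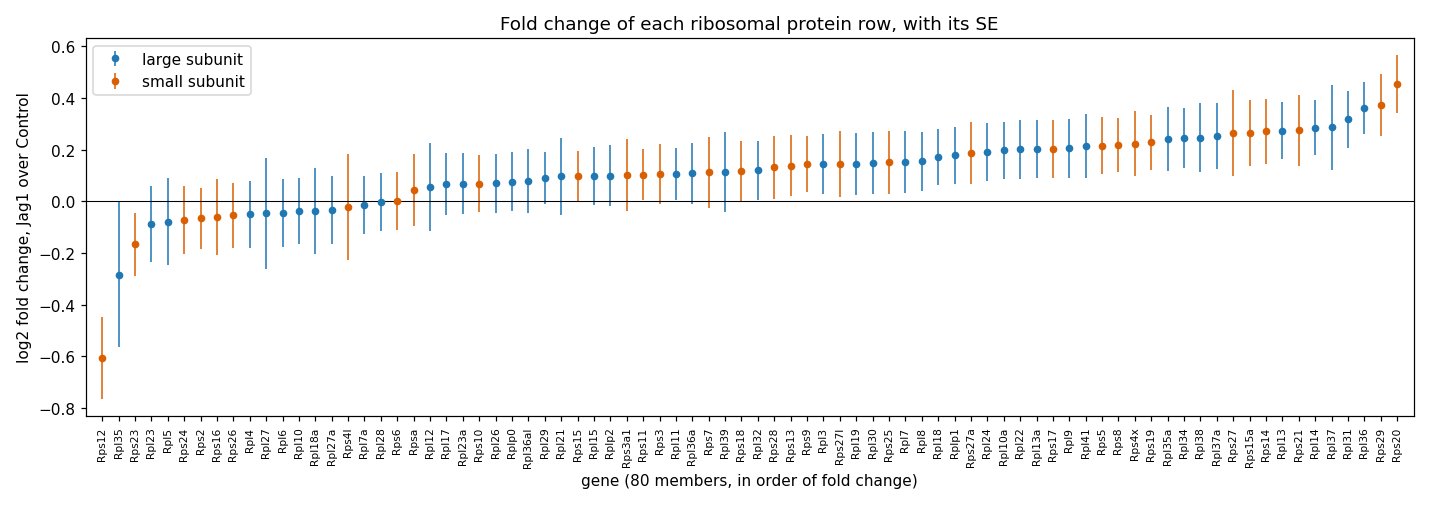
Log2 fold change of each of the 80 rows, Jag1 over Control, with its SE, in order of size and coloured by subunit. Most points lie between 0 and 0.45, and Rps12 stands apart at -0.61.

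The members' lean was smaller, but still present, without Jag1 1 or without Control 3. Each row's log2 CPM was compared with its own mean over the 6 libraries. The median over members was -0.02, -0.05 and -0.12 for the Control libraries in order, and 0.19, -0.02 and 0.01 for the Jag1 libraries. Jag1 1 held the highest value of 52 of the 80 members, and Control 3 held the lowest value of 40. Without Jag1 1 the median log2 fold change was 0.07 and 57 members were above 0. Without Control 3 it was 0.08 with 59 above 0. Without Control 1 it was 0.16 with 70 above 0.

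Acinar enzymes took 0.704% of counts in Jag1 1 and 0.360% in Control 3, the 2 lowest shares. With counts of acinar enzymes taken out of the total, the members' share was 1.64%, 1.66% and 1.54% in the Control libraries in order. In the Jag1 libraries it was 1.94%, 1.69% and 1.72%, without overlap of the groups. With the acinar marker level as a covariate, 61 members were above 0 and the median was 0.13. Duct markers took 0.0337% to 0.0381% of counts in Control and 0.0446% to 0.0491% in Jag1, without overlap, and all 6 had log2 fold changes above 0. Fibroblast and pericyte markers took 0.0153% to 0.0215% in Control and 0.0250% to 0.0330% in Jag1, and all 4 were above 0. Alpha cell markers took 3.24%, 5.78% and 5.28% of counts in Control and 3.31%, 1.52% and 3.15% in Jag1, with all 4 below 0 and a median log2 fold change of -0.64. Both delta cell markers were below 0, with a median of -0.37. The part of these cell types in the members' lean was not tested.

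Members were also split by length. Split at the median coding length of 453 bases, the 40 shorter members had a median of 0.25 above their own mean in Jag1 1, and the 39 longer members had 0.18. The shorter members had the lower median in Control 1 (-0.08 against 0.01), Control 2 (-0.07 against -0.04) and Jag1 2 (-0.06 against -0.002). In Control 3 the medians were -0.10 and -0.13, and in Jag1 3 0.009 and 0.006. Rpl6, a large-subunit protein, was lowest in Jag1 1, where most members were highest. It was at 394, 364 and 351 CPM in Control and at 301, 390 and 384 CPM in Jag1, in library order; it was named after its values were seen.

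**Figure D3:**
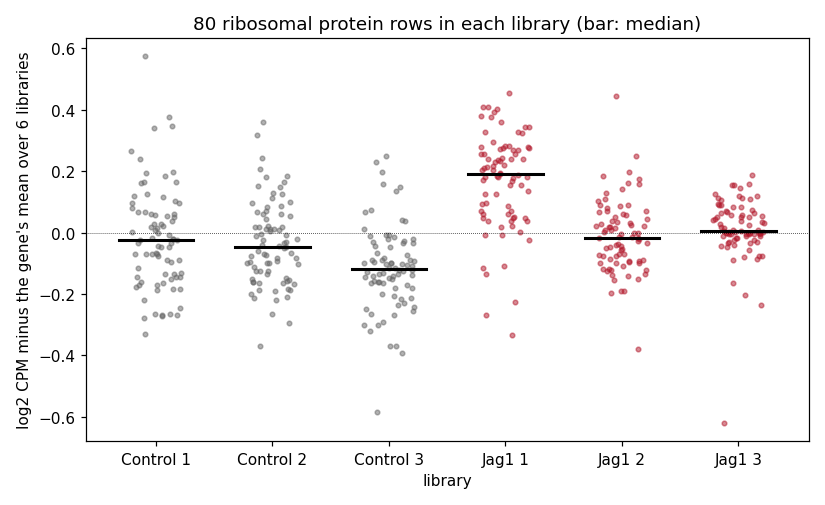
Log2 CPM of each of the 80 rows minus its mean over the 6 libraries, by library, with a bar at the median. The cloud of Jag1 1 sits highest, with a median of 0.19, and that of Control 3 lowest, with a median of -0.12.

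Among the rows with the smallest p, Rps20 encodes a protein of the small-subunit head. It was at 97.6, 97.7 and 107 CPM in Control and 156, 133 and 125 CPM in Jag1. The 3 Jag1 libraries were all higher, and the log2 fold change was 0.45 ± 0.11 (SE), with an adjusted p of 0.646 by edgeR. Its own row held 75.3% of the family's counts, with the rest on Gm4332, and the log2 fold change of the sum was 0.38 ± 0.13.

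Rpl36, a large-subunit protein, spread little within groups, with an SD of 0.06 on the log2 scale. It was at 66.4, 64.6 and 63.6 CPM in Control and 83.5, 87.3 and 79.1 CPM in Jag1, with a log2 fold change of 0.36 ± 0.10 and an adjusted p of 0.802 by edgeR. Near-copy rows held almost none of its family's counts, and its log2 fold change after summing was also 0.36.

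Rps29, a short zinc-binding protein of the small subunit, was at 152, 156 and 170 CPM in Control and 240, 184 and 195 CPM in Jag1. Its log2 fold change was 0.37 ± 0.12, with an adjusted p of 0.923 by edgeR, and Jag1 1 was the highest. Rpl31, near the exit of the peptide tunnel, was at 108, 108 and 115 CPM in Control and 154, 136 and 123 CPM in Jag1, a log2 fold change of 0.32 ± 0.11. Only 52.6% of its family's counts were on this row, and the sum had 0.19 ± 0.11. The groups did not overlap in either gene.

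Rpl14 was at 146, 149 and 157 CPM in Control and 195, 191 and 166 CPM in Jag1, a log2 fold change of 0.29 ± 0.11. Its near-copy row Rpl14-ps1, the second sequence of the pair shown above, was at 83.6, 87.4 and 59.0 CPM in Control and 59.7, 38.7 and 70.6 CPM in Jag1, a log2 fold change of -0.45 ± 0.24. The sum of both rows had a log2 fold change of 0.08 ± 0.10. Rpl14 alone was higher in all 3 Jag1 libraries, and the sum was not.

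Rps12, a small-subunit protein, was the row with the smallest p among those lower in Jag1. It was at 17.6, 17.7 and 16.2 CPM in Control and 11.8, 12.9 and 8.98 CPM in Jag1, with a log2 fold change of -0.61 ± 0.16 and an adjusted p of 0.694 by edgeR. Only 5.48% of the family's counts were on this row. Rps12-ps3, with the same coding sequence, was at 179, 184 and 209 CPM in Control and 271, 221 and 240 CPM in Jag1, with a log2 fold change of 0.35 ± 0.12 and an adjusted p of 0.926 by edgeR. Rps12l1 was at 76.8, 63.2 and 0 CPM in Control and 7.49, 0 and 9.10 CPM in Jag1, so that identical coding bases were counted on it in some libraries and not in others. The summed family was at 274, 265 and 225 CPM in Control and 291, 234 and 258 CPM in Jag1, a log2 fold change of 0.03 ± 0.12. The groups overlapped in the sum, and its direction was opposite to that of the Rps12 row alone.

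The other members with the smallest p among those lower in Jag1 were Rps23, Rpl35, Rpl23 and Rps2, none near the threshold. Rps23, a protein of the decoding centre, was at 133, 119 and 100 CPM in Control and 115, 100 and 98.4 CPM in Jag1, a log2 fold change of -0.17 ± 0.12. Its near-copy row Rps23-ps1 was at 142, 151 and 152 CPM in Control and 191, 157 and 169 CPM in Jag1, and the sum had a log2 fold change of 0.06 ± 0.11. Rpl35 spread most within groups, at 150, 125 and 66.9 CPM in Control and 98.6, 88.0 and 94.3 CPM in Jag1. Its log2 fold change was -0.28 ± 0.28, and -0.16 ± 0.17 after summing. Rpl23 and Rps2 had log2 fold changes of -0.09 ± 0.15 and -0.07 ± 0.12, and Rpl23 was at -0.00 after summing.

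Such division of counts touched 24 members, which had under 95% of their family's counts on their own row, and 9 of these had under 50%. Transcripts of a near-copy gene itself were not told apart from those of the member, so a sum can mix genes. For example, BC004004, a protein-coding gene with 65.8% of the coding words of Rpl21, held 18.8% to 26.9% of that family's counts. The largest near-copy rows were Rpl10-ps3, with 16.2% to 22.7% of the family left on Rpl10, and Gm15500, with 2.83% to 4.38% left on Rpl5. The division was not constant across libraries. Rpl37 had 60.7% of its family in Control 2 and 81.9% in Control 3, and Rpl35 had 77.4% in Control 1 and 55.5% in Control 3.

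After summing, the log2 fold changes of the 24 members ran from -0.16 to 0.44, where the rows alone ran from -0.61 to 0.45. In 17 of the 24 the SD within groups was smaller for the sum, and its median went from 0.16 to 0.14 on the log2 scale. Of the 24, 14 were above 0 by the row alone and 22 by the sum. Over all 80 members, 70 were above 0 after summing, against 49.1% of genes, and 8 changed sign. The median log2 fold change became 0.14, 21 members had all Jag1 libraries above all Control libraries against 5.31% of genes, and none had all below. No member was called by edgeR (0.0214% of genes; smallest adjusted p = 0.814), and 4 had an unadjusted p under 0.05, against 4.96% of genes. With Jag1 1 also left out, the median was 0.08 and 58 members were above 0.

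**Figure D4:**
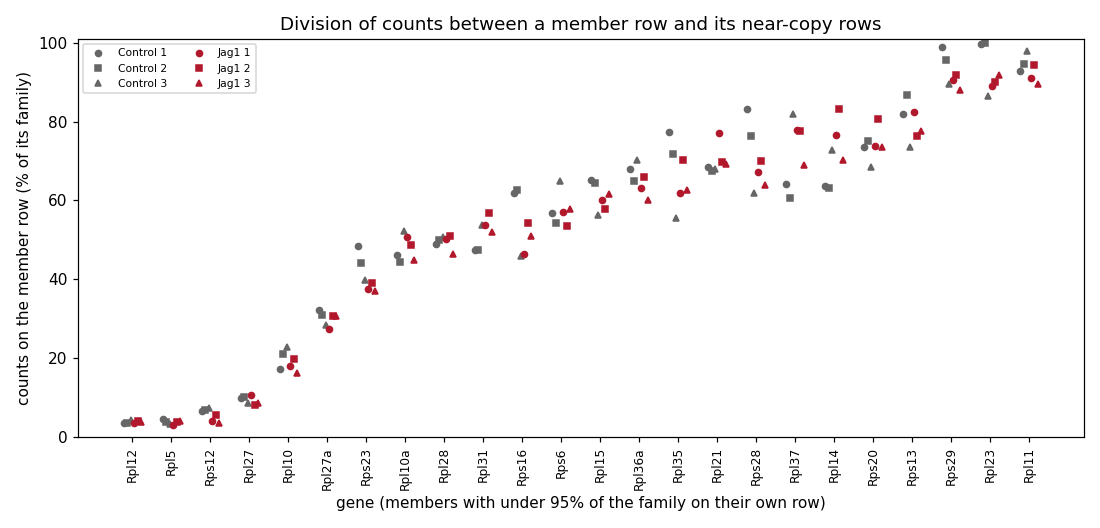
Share of a family's counts on the member's own row, in percent, for the 24 members with under 95%, in each library (grey for Control, red for Jag1). Rpl12, Rpl5 and Rps12 have under 10%, and members such as Rps28, Rpl35 and Rpl37 differ widely between libraries.

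**Figure D5:**
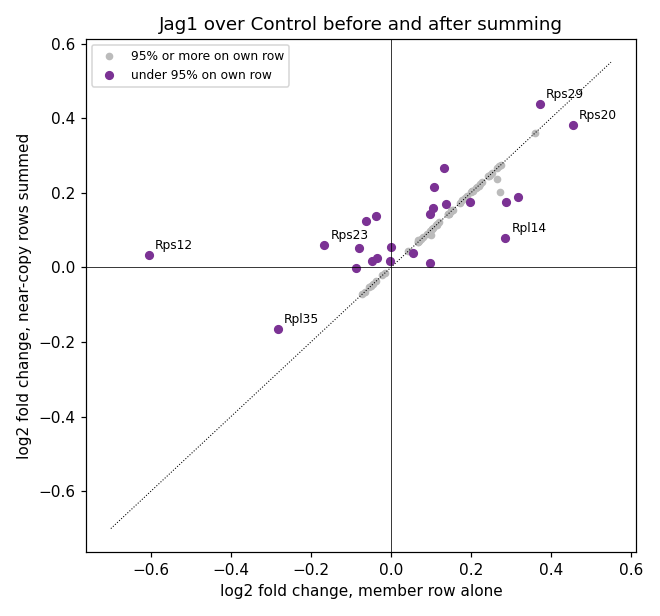
Log2 fold change, Jag1 over Control, of the member row alone against that of the member with near-copy rows summed. Points on the dotted line are unchanged, and Rps12 moves from -0.61 to 0.03.

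By role, the proteins of the P stalk, which brings elongation factors to the ribosome, had small fold changes. Rplp0 was at 466, 475 and 439 CPM in Control and 495, 479 and 480 CPM in Jag1, a log2 fold change of 0.08 ± 0.11. All 3 Jag1 values were above Control, but by a narrow margin. Rplp1 had a log2 fold change of 0.18 ± 0.11, also without overlap of the groups, and Rplp2 one of 0.10 ± 0.12 with overlap.

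Rpl5 and Rpl11 form a particle with 5S ribosomal RNA that also binds Mdm2, the p53 inhibitor, when ribosome assembly is disturbed. Rpl11 was at 209, 213 and 197 CPM in Control and 234, 221 and 212 CPM in Jag1, a log2 fold change of 0.11 ± 0.10 with overlapping groups. With its near copies the value was 0.16 ± 0.10 and the groups did not overlap. The Rpl5 row had a log2 fold change of -0.08 ± 0.17, and 0.05 ± 0.13 with its near copies. Of 20 p53 target genes tested, 10 were above 0 and the median log2 fold change was 0.01, with a range from -0.44 to 0.82. The groups did not overlap in 3 of them, against 5.30% of all genes for Jag1 higher and 5.21% for Jag1 lower. By edgeR 1 had an unadjusted p under 0.05, against 4.97% of all genes. None was called by edgeR or DESeq2, against 0.0213% and 0.256% of all genes, shares too low to expect a call among 20.

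In the small subunit, Rps6, the substrate of S6 kinase, was at 260, 238 and 241 CPM in Control and 270, 223 and 245 CPM in Jag1, a log2 fold change of 0.00 ± 0.11, and 0.06 ± 0.13 with its near copies. Rps3, at the mRNA entry site, had 0.11 ± 0.12. Rpsa, also known as a laminin receptor precursor, was at 522, 483 and 378 CPM in Control and 496, 468 and 460 CPM in Jag1, a log2 fold change of 0.04 ± 0.14. Control 3 alone stood apart in Rpsa. Rpl13a, a large-subunit protein, was at 313, 308 and 300 CPM in Control and 383, 345 and 333 CPM in Jag1, without overlap and with a log2 fold change of 0.20 ± 0.11 and an adjusted p of 0.955 by edgeR.

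Of the 4 X-linked members examined, Rps4x had a log2 fold change of 0.22 ± 0.13, Rpl36a 0.11 ± 0.12, Rpl39 0.11 ± 0.16 and Rpl10 -0.04 ± 0.13. Groups overlapped in all 4. With near copies the value was 0.21 ± 0.12 for Rpl36a, with overlap, and 0.14 ± 0.13 for Rpl10, without overlap.

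Paralogue rows stood below or above their sister rows. Rps27l, a p53-responsive paralogue, was at 87.5 CPM per kb and Rps27 at 531. Their log2 fold changes were 0.14 ± 0.13 and 0.27 ± 0.17. Rpl36al, an autosomal relative of Rpl36a, was the higher of that pair, at 266 CPM per kb against 109. It was at 123, 132 and 153 CPM in Control and 164, 131 and 137 CPM in Jag1, with a log2 fold change of 0.08 ± 0.12. Rpl3l, Rpl10l and Rpl39l, known from muscle or testis, were at or near 0 counts, with at most 3 in a library. A count of 0 allows up to 0.0853 to 0.204 CPM, which is 3 counts on the TMM scale of each library.

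Rpl22l1 and Rpl7l1 fall outside the symbol rule. Rpl22l1 was at 33.7, 39.3 and 67.1 CPM in Control and 77.6, 51.0 and 61.1 CPM in Jag1, a log2 fold change of 0.44 ± 0.29 with overlap. Its sister Rpl22 had 0.20 ± 0.11. Rpl7l1 had 0.22 ± 0.11 without overlap, and Rpl7 0.15 ± 0.12, while Rpl3 had 0.14 ± 0.12.

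Fau, which encodes a ribosomal protein made as a fusion with a ubiquitin-like protein, is also outside the rule. It had a log2 fold change of -0.05 ± 0.16. Rack1, a scaffold on the small subunit, was at 258, 249 and 231 CPM in Control and 285, 273 and 280 CPM in Jag1, a log2 fold change of 0.18 ± 0.11 with all Jag1 values higher.

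Genes that make, use or respond to ribosomes were set beside the members, 273 genes in 9 lists. By edgeR none was called, against 0.0213% of all genes, and 8 had an unadjusted p under 0.05, or 2.93%, against 4.97% of all genes. DESeq2 called 1 of the 273, where 0.256% of all genes were called. It was Nap1l1, a histone chaperone with a TOP mRNA, at 241, 188 and 203 CPM in Control and 116, 147 and 123 CPM in Jag1 (log2 fold change -0.71 ± 0.13 by edgeR). Of 78 mitochondrial ribosomal protein genes, 64 were above 0 with a median log2 fold change of 0.11, close to that of the cytosolic members. Mrpl48 led by p, with 0.27 ± 0.11. Of 18 genes of RNA polymerase I and rRNA transcription, 16 were above 0 with a median of 0.15, led by Polr2f, Polr2l and Polr2h, subunits shared with the other RNA polymerases, at 0.36 ± 0.16, 0.34 ± 0.15 and 0.49 ± 0.22. Of 60 ribosome assembly factors, 41 were above 0 with a median of 0.05, and Emg1, a methyltransferase of 18S rRNA, had 0.33 ± 0.11.

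Of the translation factors, the elongation list had 6 of 10 genes above 0 and a median of 0.08. Among those above 0 were Eef2k (0.15) and Eef1e1 (0.07), which do not themselves encode elongation factors. Initiation factors had 24 of 39 and a median of 0.05. Of 14 other genes with TOP mRNAs, 7 were above 0 with a median of -0.00; among them Pabpc1, the poly(A) binding protein, was at -0.29 ± 0.13. Dedicated chaperones of ribosomal proteins had 12 of 16 above 0 and a median of 0.07. Of 21 mTORC1 and Myc regulators, 6 were above 0 with a median of -0.07. This list pools activators and inhibitors, so its median gives no direction for ribosome production.

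In the authors' deposited table, which comes from their limma comparison, all 80 members were present and none had an adjusted p under 0.05 (0.0213% of its genes did). The smallest adjusted p of a member in the authors' deposited table was 0.929. The median log2 fold change in the authors' deposited table was 0.12, with 61 members above 0, and Rps20 and Rps12 were at 0.45 and -0.60.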

How the data were processed

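Members and gene lists were chosen with earlier results of these data known. The deposited table holds estimated counts per gene symbol, made by the authors with kallisto on GRCm38 (mm10), per the submitters' processing notes; no version or annotation is named there. In their own deposited limma table the authors give log2 fold changes, p-values and score columns, per the file headers. Estimated counts were rounded, and a row naming no gene (0.00896% to 0.0155% of counts) was left out. edgeR 4.0.16 in R 4.3.3 kept 14073 genes by filterByExpr (minimum count 10), scaled by TMM, and ran the robust quasi-likelihood test with Benjamini-Hochberg adjustment at 0.05. CPM uses TMM library sizes; log2 CPM for single libraries used a prior count of 2. DESeq2 1.42.0 and limma-voom 3.58.1 were alternatives. On simulated data with 13891 genes, 40.3% of 1.5-fold, 77.3% of 2-fold and 95.3% of 4-fold changes were recovered for Jag1 against Control. These counts were drawn once, with 200 genes changed, from trended dispersions and without shifts shared by a whole library. In the simulation 146 genes were called, against 3 in the data. With more genes called, the adjusted threshold is easier to pass, so the rates may be too high for the data. No change under 1.5-fold was simulated, so the rates do not cover changes as small as those of most members. Near-copy rows were found with 31-base words of GENCODE vM21 coding sequences. Named members were those with the 5 smallest p in each direction, the 3 highest and lowest levels per kb, the 3 largest SDs within groups (Rpl35, Rps4l and Rpl27), and a set fixed by role; from each gene list, up to 3 with the smallest p. One non-member is not reported here, and not every list gene is described.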

Additional observations from a re-analysis of the deposited data

How the results depend on the processing

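The count of members called was 0 under every alternative except DESeq2 (1 member). The median log2 fold change of members stayed above 0 under all alternatives, from 0.07 to 0.17. Genes called over the whole table numbered 3, but 36 by DESeq2, 11 with library totals only, 9 with no filter on low counts, 4 by limma-voom, 4 with the acinar covariate, 2 with near-copy rows summed and Jag1 1 left out, and 7 without Control 1 and Jag1 3 (chosen after seeing the data, as was summing of near-copy rows); leaving out 1 library gave 2 to 6. Members whose groups do not overlap numbered 19, but 16 with library totals only and 25 with no filter on low counts. They numbered 37 without Control 1 and Jag1 3, and 21 to 38 with 1 library left out (38 without Control 3, of which 11 were lower in Jag1). In those fits fewer libraries make separation easier. The other alternatives gave 19 to 23. Shares over all genes were taken only for the main fit and with near-copy rows summed, so the other counts have no share to be judged by.

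Correlations over genes between the deviations of same-numbered libraries were -0.19, 0.11 and -0.29. These 3 values are too few to show whether shared numbers pair libraries, and the labels do not say. With the replicate block, 3 genes and 0 members were called and the median log2 fold change was 0.12.

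Of 741 values of 39 named genes under alternatives, 700 kept their direction and side of the threshold, 40 changed sign and 1 passed the threshold (Rps20 by DESeq2); the cause was not tested. With near-copy rows summed, Rps12 was at 0.0333, Rps23 0.0590, Rpl27 0.0171, Rpl5 0.0525 and Rpl10 0.137. With -ps rows summed, Rps12 was at 0.294, Rps23 0.0585 and Rpl10 0.136. With near-copy rows summed and Jag1 1 left out, Rps3a1 was at -0.0226, Rpl12 -0.0340, Rps4l 0.126, Rps6 -0.000423, Rpl10 0.0797 and Rpl36al -0.0179. Without Control 1 and Jag1 3, Rpl27 was at 0.0559, Rpl5 0.0275, Rpl39 -5.48e-05 and Fau 0.0509. With library totals only, Rps4l was at 0.00900. Rps6 was at -2.38e-05 with the acinar covariate, -0.00124 by limma-voom and -0.00289 with the replicate block. Leaving out 1 library in turn gave Rps3a1 -0.0232 to 0.176, Rpl27 -0.275 to 0.122, Rpl5 -0.232 to 0.0954, Rps4l -0.306 to 0.126, Rplp2 -0.000570 to 0.174, Rpsa -0.0813 to 0.146, Rps6 -0.0709 to 0.0688, Rpl10 -0.129 to 0.0629, Rpl36al -0.0230 to 0.172 and Fau -0.196 to 0.0969.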

Other observations

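Among the 34 near-copy rows that passed the filter on low counts, 23 had a log2 fold change above 0 and 18 had the opposite sign to their member. None was called by edgeR (smallest adjusted p = 0.926) or by DESeq2, against 0.0213% and 0.256% of all genes. Some near-copy rows varied widely between libraries. Gm9794, a near copy of the large-subunit gene Rpl23, was at 1.32, 0.385 and 34.3 CPM in Control 1 to 3 and 33.7, 26.2 and 24.6 CPM in Jag1 1 to 3. Gm14303, a near copy of Rps29, was at 1.76, 7.26 and 19.99 CPM in Control and 24.8, 16.2 and 26.4 CPM in Jag1. In both, Control 1 and Control 2 were the lowest libraries.

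Rps4l, the member annotated as a pseudogene, was at 25.4, 33.2 and 27.9 CPM in Control and 22.2, 38.2 and 24.3 CPM in Jag1. Its SD within groups was 0.33 on the log2 scale, against a median of 0.13 over members.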
